A study of Mus musculus with 6 samples.

Results

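Values were deposited for 8191 genes in splenic myeloid-derived suppressor cells (MDSCs) of aged mice. Of these, 55 belonged to the tumor necrosis factor (TNF) superfamily and its signalling chain. Only genes that differed between genotypes were listed, so 55 is not a count of expressed genes. The genes were chosen by symbol among the listed genes, with earlier results of these data known. They are Tnf and all symbols beginning with Tnfsf, Tnfrsf, Tnfaip, Traf, Nfkb, Ikbk, Ripk or Casp plus a digit, together with named single genes such as Ltb, Cd27, Fadd, Tradd, Cflar, Birc3, Tab1, Cyld and Tank. They comprise 8 ligands, 15 receptors, 13 adaptors, 5 kinases, 2 NF-kB subunits or inhibitors, 8 caspases and death regulators, and 4 Tnfaip genes and Cyld. The GENCODE M21 annotation holds 97 protein-coding symbols of this kind, and 55 of them were in the table. Tnfrsf1a, the gene for TNFR1, and others such as Fas, Cd40, Traf2, Rela and Tnfaip3 were not analysed here. MDSCs were freshly taken from spleens of ageing WT, Tnfr1-/- and Tnfr2-/- mice, all BALB/c, with 2 samples per genotype and no treatment or culture. The deletions belong to the mouse strains and are not restricted to MDSCs.

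TNF-family ligands are membrane-bound or shed trimers that gather their receptors into clusters. Receptors with a death domain, such as TNFR1, recruit TRADD, FADD and RIPK1 and can lead either to NF-kB activation or to caspase-dependent death. Receptors without one, such as TNFR2, CD27 and BAFF receptor, bind TRAF adaptors and signal mainly towards NF-kB and MAP kinases. NF-kB in turn raises the transcription of its own inhibitor, encoded by Nfkbia. TNFR2, the product of Tnfrsf1b, is carried at high levels by MDSCs and regulatory T cells.

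Expression was deposited as FPKM, which scales fragments to transcript length and to sequencing depth, so levels can be set side by side between genes per length. The table kept only genes with a one-way ANOVA p under 0.05 over the 3 genotypes, and the largest p on recalculation was 0.04995. All 55 genes had therefore been picked for some difference, and counts of called genes are read against the share of all 8191 listed genes that met the same criterion. Summed FPKM was 344714 and 346870 in the WT libraries against 133604 to 155248 in the 4 knockout libraries. The WT libraries carried values of up to 10 digits, against 6 in the knockouts. How the values were made and the WT genotype cannot be told apart, so differences from WT are given both as deposited and after scaling. Statements on which samples were higher, lower or overlapping refer to deposited FPKM unless scaling is named. Of the MDSC marker genes, Itgam, Ly6g, S100a8 and S100a9 were not analysed here. The 3 neutrophil-type markers that were listed (Csf3r, Retnlg and Mmp9) summed to 13.7 and 15.4 FPKM in WT and to 1522 to 3070 FPKM in the knockouts. The 9 listed markers of spleen macrophages summed to 3117 and 3256 FPKM in WT and to 281 to 392 FPKM in the knockouts, and none of the listed markers was at 0. In these bulk samples, fewer cells of a type and less RNA per cell cannot be told apart. The part of cell make-up in the differences from WT was not tested.

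The targeted gene of the Tnfr2-/- strain was examined first. Tnfrsf1b (chr4:145213463-145246870 on GRCm38, minus strand) was at 112 and 115 FPKM in WT, 47.8 and 69.6 FPKM in Tnfr1-/- and 11.3 and 14.3 FPKM in Tnfr2-/- MDSCs. The 3 genotypes did not overlap, and the order of levels was WT, Tnfr1-/-, Tnfr2-/-. Tnfrsf1b was lower in Tnfr2-/- than in Tnfr1-/- MDSCs by limma on log2(FPKM + 1) (log2 difference -2.09, SE 0.206, Benjamini-Hochberg adjusted p = 0.0310) and lower than in WT (-3.06, SE 0.206, adjusted p = 0.000162). The difference from WT remained after median-ratio scaling (-2.09). The remaining signal was not 0, and the FPKM value does not show which exons it came from. Between Tnfr1-/- and WT the log2 difference was -0.96 (SE 0.206, adjusted p = 0.00672) as deposited and 0.17 after median-ratio scaling, so its direction was not settled by these data. The WT and Tnfr1-/- samples overlapped after scaling.

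The comparison of the knockouts with each other asked how loss of TNFR2 differs from loss of TNFR1. A gene was called different at an adjusted p under 0.05 and a fold change over 1.5. Of the 55 genes, 6 were called, against 1.45% of all listed genes. Tnfsf13, Casp9 and Tnfrsf21 were higher in Tnfr2-/- MDSCs (3 genes, against 0.842% of all), and Tnfrsf1b, Cd27 and Tnf were lower (3 genes, against 0.61%). An unadjusted p under 0.05 was reached by 20 of the 55 genes, against 24% of all. The samples of the 2 knockouts did not overlap for 34 of the 55 genes, against 51% of all. The median log2 difference was 0.04 over the 55 genes and 0.06 over all genes. With only the 2 knockouts in the model no gene was called, and the 6 genes then had an unadjusted p of 0.00108 to 0.00370 and an adjusted p of 0.153 to 0.160. A replicate block in the limma model left 0 of the 55 and 7 of all genes called. The 6 genes then had an adjusted p of 0.0566 to 0.0870. The sources do not tie replicate numbers to the study's 2 experiments. Leaving out WT replicate 1, WT replicate 2, Tnfr1-/- replicate 1, Tnfr1-/- replicate 2 or Tnfr2-/- replicate 2 also left 0 of the 6 called, while leaving out Tnfr2-/- replicate 1 gave 7, with 8.08% of all genes then called. The direction of all 6 was the same under each of these settings. Median-ratio scaling called 2 genes higher (1.1% of all) and 6 lower (1.49% of all), and quantile normalization also called 2 higher (1.53% of all) and 6 lower (1.45% of all). Under all 3 treatments of the values 2 genes were higher (0.671% of all) and 3 lower (0.61% of all), and the exception was Tnfrsf21. The study states that MDSCs of several mice were pooled in each of 2 experiments, so the p-values measure the spread between pools and not between single mice. Of 5 listed monocyte markers, Ccr2 was also called higher in Tnfr2-/- than in Tnfr1-/- MDSCs (1.24) as deposited. Of 9 macrophage markers, Cd68 (0.97) and Adgre1 (0.64) were called higher as deposited and 0 were called lower. The rest were not called and went both ways. Hmox1 (0.36), Spic (0.31) and C1qb (0.25) were above 0, and Vcam1 (-0.51), C1qc (-0.24), C1qa (-0.21) and Mertk (-0.13) below it. Under all 3 treatments 1 monocyte marker and 1 macrophage marker were called higher. The monocyte markers summed to 346 and 401 FPKM in Tnfr1-/- and to 617 and 741 FPKM in Tnfr2-/- samples, and their part in these differences was not tested.

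**Figure D1:**
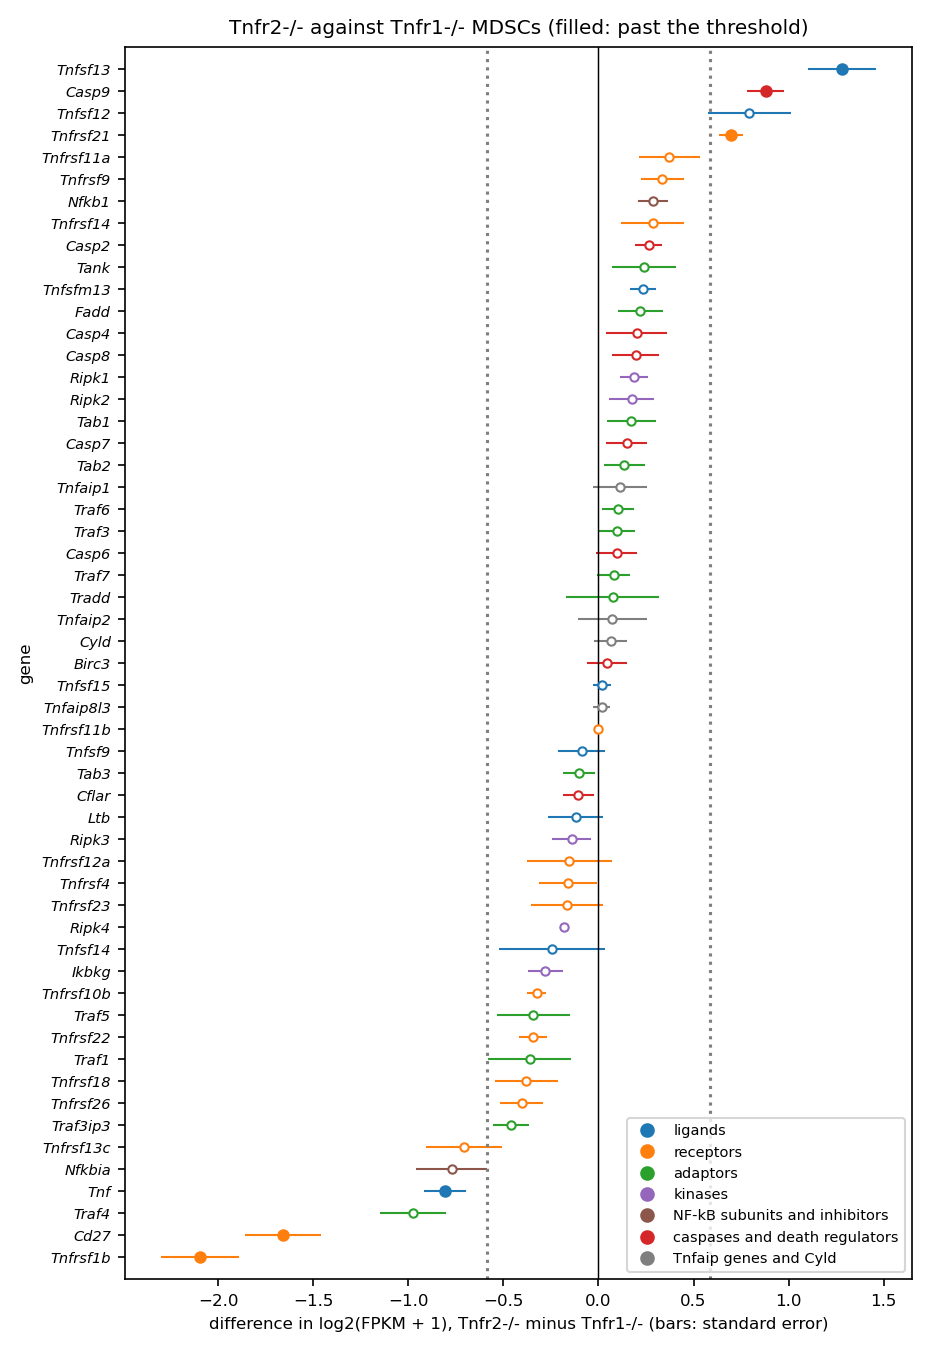
Difference in log2(FPKM + 1) between Tnfr2-/- and Tnfr1-/- MDSCs (x axis) for each of the 55 genes (y axis), coloured by role, with standard errors as bars. Filled points are the 6 genes past the threshold, dotted lines mark a fold change of 1.5, and Tnfrsf1b (-2.09) and Tnfsf13 (1.28) lie at the ends.

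The comparisons with WT asked how each knockout differs from cells with both receptors. As deposited, 42 of the 55 genes were called in Tnfr2-/- MDSCs (70.7% of all), 13 of them higher (13.6% of all) and 29 lower (57.1% of all). In Tnfr1-/- MDSCs 45 were called (74.8% of all), 14 higher (14.1% of all) and 31 lower (60.7% of all). The samples of Tnfr2-/- and WT did not overlap for 53 of the 55 genes (98.3% of all), with 16 above WT (21.1% of all) and 37 below (77.2% of all). Those of Tnfr1-/- and WT did not overlap for 54 (99% of all), with 18 above (21.7% of all) and 36 below (77.3% of all). Both comparisons share the WT samples, and no likeness between them is drawn. The median of all genes was -0.74 for Tnfr2-/- and -0.83 for Tnfr1-/- as deposited. Median-ratio scaling brought it to -0.03 for each and changed the split of calls to 19 higher and 10 lower for Tnfr2-/- (21.9% and 21% of all) and to 21 higher and 10 lower for Tnfr1-/- (23.3% and 22.2% of all). Quantile normalization gave 18 higher and 11 lower in each comparison (20.8% and 22.8% of all for Tnfr2-/-, 21.4% and 25.3% of all for Tnfr1-/-). The sign of the difference changed between deposited and median-ratio values for 16 of the 55 genes in each comparison. A call in the same direction under all 3 treatments of the values was made for 13 genes higher (13.6% of all) and 9 lower (19.9% of all) in Tnfr2-/-, and for 14 higher (14.1% of all) and 10 lower (21.4% of all) in Tnfr1-/- MDSCs. The text below calls a gene higher or lower than WT where it held under all 3. For rises this rule removed nothing. All 1115 genes called higher as deposited in Tnfr2-/- and all 1151 in Tnfr1-/- MDSCs held under all 3. Scaling of whole libraries also leaves in place gene-wise differences in how the values were made or in cell make-up.

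**Figure D2:**
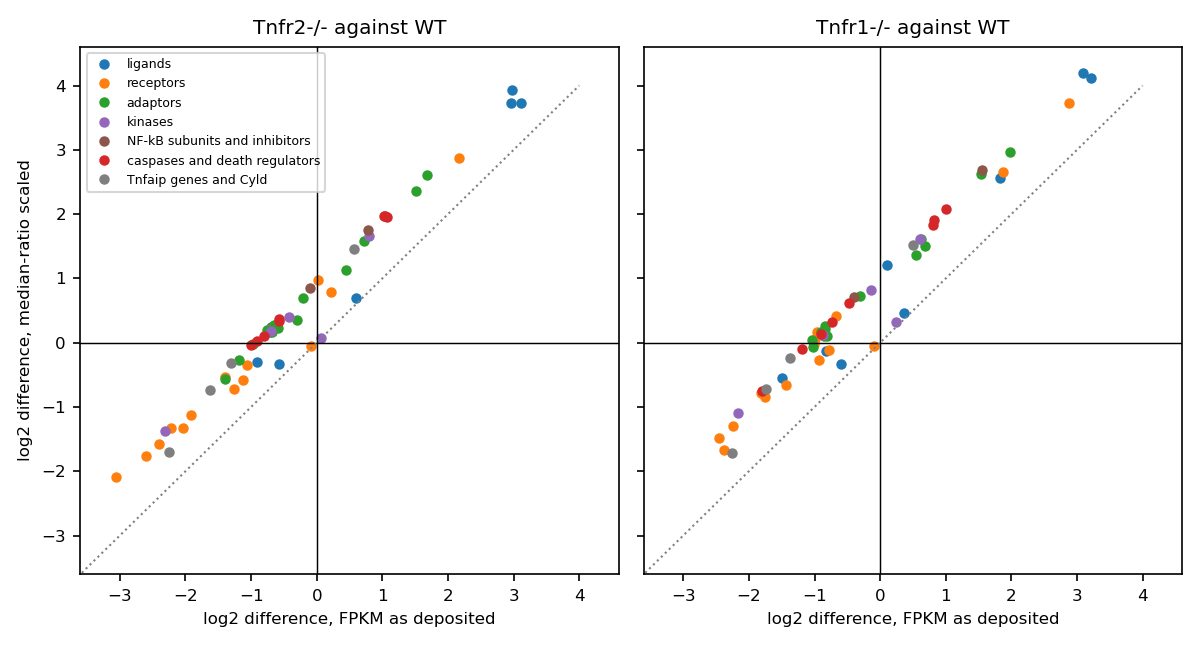
Log2 difference from WT for each of the 55 genes with FPKM as deposited (x axis) and after median-ratio scaling (y axis), for Tnfr2-/- (left) and Tnfr1-/- (right), coloured by role. The dotted line marks equal values. Most points lie above it, and 16 genes in each panel have opposite signs on the 2 axes.

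Among the ligands, Tnf and Tnfsf13 distinguished the knockouts. Tnf (chr17:35199381-35202007, minus strand), the founding cytokine of the family and a ligand of both TNFR1 and TNFR2, was at 27.9 and 24.2 FPKM in WT, 30.4 and 25.9 FPKM in Tnfr1-/- and 15.7 and 15.6 FPKM in Tnfr2-/- MDSCs. Both Tnfr2-/- samples were below the other 4, while WT and Tnfr1-/- overlapped. Tnf was lower in Tnfr2-/- than in Tnfr1-/- MDSCs (log2 difference -0.81, SE 0.111, adjusted p = 0.0407). After median-ratio scaling Tnfr2-/- lay between WT, which was lowest, and Tnfr1-/-. Against WT the direction of Tnf therefore depended on scaling. For Tnfr2-/- the difference was -0.70 as deposited, 0.25 after median-ratio scaling and 0.07 after quantile normalization. For Tnfr1-/- it was 0.11 (adjusted p = 0.380), 1.20 and 1.08, and without Tnfr1-/- replicate 1 the deposited value was -0.0027.

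Tnfsf13 (chr11:69682846-69685784, minus strand) encodes APRIL, a survival factor for plasma cells and B cells. It was at 1.41 and 1.03 FPKM in WT, 7.26 and 6.49 FPKM in Tnfr1-/- and 15.6 and 21.1 FPKM in Tnfr2-/- MDSCs, with no overlap between genotypes. It was higher in Tnfr2-/- than in Tnfr1-/- MDSCs (1.28, SE 0.179, adjusted p = 0.0416) and higher than WT in Tnfr2-/- (3.11, SE 0.179) and Tnfr1-/- (1.83, SE 0.179) MDSCs. With a pseudocount of 0.1 in place of 1, the adjusted p between the knockouts was 0.0545. Its neighbour Tnfsf12, encoding TWEAK, lies 465 bases away and was at 11.1 and 8.60 FPKM in WT, 2.21 and 3.53 FPKM in Tnfr1-/- and 6.11 and 5.13 FPKM in Tnfr2-/- MDSCs (0.79 between the knockouts, SE 0.218, adjusted p = 0.121). Tnfsfm13, a read-through transcript spanning both, was listed at 0 in both WT samples and at 0.208 to 0.571 FPKM in the knockouts. Tnfsfm13 overlaps Tnfsf12 and Tnfsf13 on the same strand. Of the 50-base windows, 46.8% (Tnfsf12), 57.3% (Tnfsf13) and 71.0% (Tnfsfm13) occur in another gene, so how the reads of these 3 genes were divided is uncertain.

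Ltb and Tnfsf14 were higher than WT in both knockouts. Ltb, which encodes lymphotoxin beta, the membrane anchor of a ligand that organises lymphoid tissue, was at 21.6 and 26.1 FPKM in WT, 192 and 229 FPKM in Tnfr1-/- and 183 and 203 FPKM in Tnfr2-/- MDSCs. All 4 knockout samples were far above WT and the knockouts overlapped each other. Ltb was higher than WT in Tnfr2-/- (2.97, SE 0.142, adjusted p = 6.35e-05) and Tnfr1-/- (3.09, SE 0.142, adjusted p = 4.84e-05) MDSCs, while between the knockouts the difference was -0.12 (SE 0.142, adjusted p = 0.663). Tnfsf14, encoding LIGHT, was at 3.23 and 2.48 FPKM in WT, 29.3 and 40.5 FPKM in Tnfr1-/- and 36.6 and 22.8 FPKM in Tnfr2-/- MDSCs. It too was higher than WT in Tnfr2-/- (2.96, SE 0.278) and Tnfr1-/- (3.21, SE 0.278) MDSCs and overlapped between knockouts. The 5 listed B cell markers summed to 46.8 and 47.0 FPKM in WT, 329 and 396 FPKM in Tnfr1-/- and 174 and 301 FPKM in Tnfr2-/- samples, and their part in the levels of Ltb and Tnfsf14 was not tested. The other ligands, Tnfsf9 and Tnfsf15, were highest in WT, at no more than 2.91 FPKM, and were not called under all 3 treatments.

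**Figure D3:**
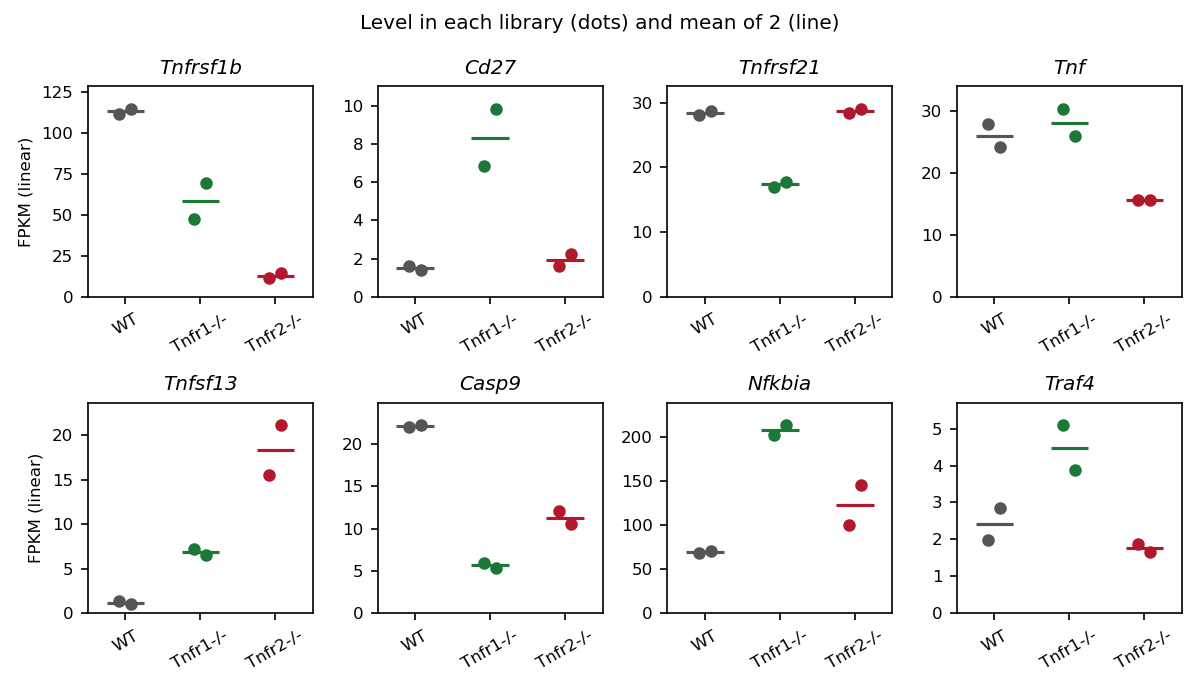
FPKM (y axis, linear) of 8 genes in each of the 6 libraries by genotype (x axis), with dots for libraries and lines for means of 2. On this deposited scale Tnf is lowest in both Tnfr2-/- libraries, Cd27 is highest in both Tnfr1-/- libraries, and Tnfsf13 is highest in both Tnfr2-/- libraries.

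Upstream sequences are shown for Ltb and Nfkbia, whose levels were among the highest of the 55 genes in the knockouts, and for Tnf, which lies 3060 bases from Ltb and followed another order of levels. Each is the 250 bases before the RefSeq start site on GRCm38.p6, written 5' to 3' on the gene's strand, with capitals marking matches to the NF-kB (kappa B) consensus of 10 bases searched on both strands. The windows are chr17:35194257-35194506 (plus strand) for Ltb, chr12:55492648-55492897 (minus strand) for Nfkbia and chr17:35202008-35202257 (minus strand) for Tnf.
Ltb: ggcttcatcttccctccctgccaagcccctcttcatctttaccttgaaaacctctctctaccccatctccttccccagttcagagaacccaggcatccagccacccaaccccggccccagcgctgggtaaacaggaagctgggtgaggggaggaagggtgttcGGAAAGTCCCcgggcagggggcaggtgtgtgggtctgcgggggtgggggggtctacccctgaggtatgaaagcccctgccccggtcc
Nfkbia: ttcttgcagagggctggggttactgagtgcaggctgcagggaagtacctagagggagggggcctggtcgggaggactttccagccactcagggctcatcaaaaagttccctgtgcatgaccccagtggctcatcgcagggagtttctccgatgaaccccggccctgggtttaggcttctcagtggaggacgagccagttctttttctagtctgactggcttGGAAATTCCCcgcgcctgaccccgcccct
Tnf: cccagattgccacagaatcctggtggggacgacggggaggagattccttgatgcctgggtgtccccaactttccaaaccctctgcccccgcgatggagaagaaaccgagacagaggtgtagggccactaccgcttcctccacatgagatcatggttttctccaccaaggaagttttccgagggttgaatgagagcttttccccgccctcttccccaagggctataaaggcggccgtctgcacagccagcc
The match starts at -87 from the start site in Ltb and at -29 in Nfkbia, and no match to this consensus occurred in the Tnf window. Sequence beyond the 250 bases and looser forms of the motif were not searched, so Tnf may have sites elsewhere. Any part of such sites in the levels was not tested. A window was available for 43 of the 55 genes, and 8 (18.6%) held a match: Casp4, Cyld, Ltb, Nfkbia, Tank, Tnfaip2, Tnfrsf9 and Traf3. The share was 8.23% of 27025 RefSeq genes and 10.3% of 6593 listed genes. These 8 genes did not share a direction. Tnfrsf9 was lower and Ltb, Nfkbia, Casp4 and Traf3 higher than WT in both knockouts, while Tnfaip2, Tank and Cyld were not called in the same direction under all 3 treatments.

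Most receptors were lower than WT as deposited, and fewer after scaling. Without scaling, 11 of 15 receptors were called lower and 1 higher in Tnfr2-/- MDSCs (57.1% and 13.6% of all genes), and 12 lower and 2 higher in Tnfr1-/- MDSCs (60.7% and 14.1% of all). After median-ratio scaling the counts were 7 lower and 3 higher (21% and 21.9% of all), and 6 lower and 2 higher (22.2% and 23.3% of all). Tnfrsf12a, the receptor for TWEAK, was at 15.5 and 17.9 FPKM in WT, 2.01 and 2.47 FPKM in Tnfr1-/- and 1.37 and 2.56 FPKM in Tnfr2-/- MDSCs. It was lower than WT in both (-2.45 and -2.60, SE 0.224) and overlapped between knockouts. Tnfrsf9, which encodes the costimulatory receptor 4-1BB, was at 6.43 and 5.75 FPKM in WT, 0.292 and 0.431 FPKM in Tnfr1-/- and 0.877 and 0.571 FPKM in Tnfr2-/- MDSCs, and was lower than WT in both (-2.38 and -2.04, SE 0.115). Tnfrsf4, encoding the costimulatory receptor OX40, was at 7.58 and 8.71 FPKM in WT and between 1.16 and 1.89 FPKM in the 4 knockout samples (-1.75 and -1.91, SE 0.152). The knockouts lay well below WT for all 3 receptors.

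Tnfrsf22, Tnfrsf23 and Tnfrsf26 form a cluster of TRAIL-receptor-like genes on chr7 between 143607659 and 143685872. Tnfrsf26 was at 21.6 and 19.9 FPKM in WT, 4.72 and 5.61 FPKM in Tnfr1-/- and 3.87 and 3.42 FPKM in Tnfr2-/- MDSCs. Tnfrsf23 was at 13.6 and 11.7 FPKM in WT and between 1.22 and 2.15 FPKM in the knockouts. Both were lower than WT in each knockout, by -1.82 and -2.24 in Tnfr1-/- and by -2.23 and -2.40 in Tnfr2-/- MDSCs for Tnfrsf26 and Tnfrsf23. Tnfrsf22, the decoy member of lowest level, was at 0.769 and 1.00 FPKM in Tnfr1-/- and 0.486 and 0.476 FPKM in Tnfr2-/- MDSCs (-0.35, SE 0.0740, adjusted p = 0.0778). Tnfrsf22 and Tnfrsf23 share 27.4% and 19.3% of their 50-base windows with another gene, so their values are uncertain. Tnfrsf10b, the TRAIL death receptor, was at 2.27 FPKM in both WT samples, 0.662 and 0.781 FPKM in Tnfr1-/- and 0.402 and 0.345 FPKM in Tnfr2-/- MDSCs. Its difference between the knockouts was -0.33 (SE 0.0501, adjusted p = 0.0505).

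Cd27 and Tnfrsf21 were the other receptors that differed between the knockouts. Cd27 (chr6:125232622-125237010, minus strand), a costimulatory receptor of T cells and memory B cells, was at 1.63 and 1.39 FPKM in WT, 6.82 and 9.84 FPKM in Tnfr1-/- and 1.62 and 2.24 FPKM in Tnfr2-/- MDSCs. Both Tnfr1-/- samples were above the other 4, and WT and Tnfr2-/- overlapped. After median-ratio scaling WT and Tnfr2-/- no longer overlapped, and Tnfr2-/- was called higher than WT (0.79, and 0.92 after quantile normalization). Cd27 was lower in Tnfr2-/- than in Tnfr1-/- MDSCs (-1.66, SE 0.199, adjusted p = 0.0378) and higher than WT in Tnfr1-/- MDSCs (1.88, SE 0.199, adjusted p = 0.000573). The 4 listed T cell markers summed to 36.1 and 40.7 FPKM in WT, 43.3 and 50.7 FPKM in Tnfr1-/- and 22.8 and 25.2 FPKM in Tnfr2-/- samples, and 1 of them, Cd5, was also called lower in Tnfr2-/- than in Tnfr1-/- MDSCs. The part of lymphocytes in the Cd27 difference was not tested. Tnfrsf13c, the BAFF receptor that maintains mature B cells, was at 2.04 and 2.35 FPKM in WT, 24.7 and 20.3 FPKM in Tnfr1-/- and 11.01 and 16.1 FPKM in Tnfr2-/- MDSCs. It was higher than WT in both (2.87 and 2.17, SE 0.202), and between the knockouts the difference was -0.71 (SE 0.202, adjusted p = 0.127). All 5 listed B cell markers were also called higher than WT in each knockout.

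Tnfrsf21 (chr17:43016555-43089189, plus strand) encodes death receptor 6. It was at 28.1 and 28.7 FPKM in WT, 16.9 and 17.8 FPKM in Tnfr1-/- and 28.4 and 29.1 FPKM in Tnfr2-/- MDSCs. Both Tnfr1-/- samples were below the other 4 as deposited, whereas after median-ratio scaling WT was lowest. Against WT the difference was then 0.41 for Tnfr1-/- (-0.68 as deposited) and 0.97 for Tnfr2-/- (0.02 as deposited), the latter called under both scalings. It was higher in Tnfr2-/- than in Tnfr1-/- MDSCs (0.70, SE 0.0636, adjusted p = 0.0299). After median-ratio scaling the difference was 0.56 (adjusted p = 0.0338), which no longer passed the fold threshold. Tnfrsf11a, the receptor RANK, was lower than WT in Tnfr1-/- MDSCs (4.24 FPKM in both WT samples against 0.899 and 0.986 FPKM). Tnfrsf11b, the decoy receptor osteoprotegerin, was at 0.0734 and 0.0551 FPKM in WT and listed at 0 in all 4 knockout samples.

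Of the 13 adaptors 0 were called between the knockouts as deposited by limma (1.45% of all genes). An unadjusted p under 0.05 was reached by 2 (Traf4 and Traf3ip3), against 24% of all. Traf4, a TRAF family member linked to cell polarity and migration, was at 1.99 and 2.86 FPKM in WT, 5.09 and 3.87 FPKM in Tnfr1-/- and 1.88 and 1.66 FPKM in Tnfr2-/- MDSCs. Both Tnfr1-/- samples were above the other 4. The difference between the knockouts was -0.98 (SE 0.175, adjusted p = 0.0622), and it was called after median-ratio scaling (-1.15, adjusted p = 0.0363), after quantile normalization (-1.02, adjusted p = 0.0392) and among genes with a mean of at least 1 FPKM (adjusted p = 0.0334). Traf4 was higher than WT in Tnfr1-/- MDSCs (0.68, SE 0.175, adjusted p = 0.0130). Traf3ip3, a TRAF3-binding protein of lymphocytes, was at 5.36 and 5.47 FPKM in WT, 26.3 and 22.4 FPKM in Tnfr1-/- and 17.6 and 17.1 FPKM in Tnfr2-/- MDSCs, with no overlap. It was higher than WT in both knockouts (1.98 and 1.52, SE 0.0968), and between the knockouts the difference was -0.46 (adjusted p = 0.0753) as deposited and -0.61 (adjusted p = 0.0491) after median-ratio scaling.

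Tab2, which links ubiquitin chains to the kinase TAK1, was at 14.7 and 13.2 FPKM in WT and between 39.1 and 47.0 FPKM in the knockouts. It was higher than WT in Tnfr1-/- (1.54) and Tnfr2-/- (1.68, SE 0.107) MDSCs. Traf3, a restraint on non-canonical NF-kB signalling, was also higher than WT in both, at 6.70 and 6.24 FPKM in WT against 10.1 to 11.9 FPKM. The death-domain adaptors gave no settled direction. Fadd was at 5.94 and 6.40 FPKM in WT and 2.74 to 3.92 FPKM in the knockouts, and Tradd was at 27.9 and 25.4 FPKM in WT and 10.03 to 17.06 FPKM in the knockouts. Both were called lower as deposited, and no adaptor was called lower than WT after median-ratio scaling.

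Among the kinases, Ripk1 and Ripk3, which act together in necroptosis, differed from WT in opposite directions. Ripk3 was at 38.1 and 39.5 FPKM in WT, 7.64 and 8.06 FPKM in Tnfr1-/- and 6.40 and 7.71 FPKM in Tnfr2-/- MDSCs. It was lower than WT in Tnfr1-/- (-2.17) and Tnfr2-/- (-2.31, SE 0.102) MDSCs, and the knockouts overlapped. Ripk1 was at 7.46 and 7.34 FPKM in WT, 11.3 and 12.2 FPKM in Tnfr1-/- and 13.6 and 13.4 FPKM in Tnfr2-/- MDSCs, and was higher than WT in both (0.60 and 0.79, SE 0.0752). The ratio of Ripk3 to Ripk1 FPKM was 5.11 and 5.39 in WT, 0.676 and 0.660 in Tnfr1-/- and 0.470 and 0.575 in Tnfr2-/- MDSCs. A factor common to a whole library cancels in this ratio. Gene-wise differences in how the values were made, or in cell make-up, do not cancel. Ikbkg, the regulatory subunit NEMO, was at 5.44 and 5.22 FPKM in Tnfr1-/- and 4.46 and 3.97 FPKM in Tnfr2-/- MDSCs (-0.28, SE 0.0924, adjusted p = 0.162). Ripk4 was listed at 0 in WT, at 0.199 and 0.175 FPKM in Tnfr1-/- and at 0.0463 and 0.0460 FPKM in Tnfr2-/- MDSCs. It passed the adjusted p between the knockouts (0.0255) but not the fold threshold on the log2(FPKM + 1) scale (-0.18), which compresses low values. With a pseudocount of 0.1 it was called lower (-0.97, adjusted p = 0.00967).

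Nfkbia (chr12:55489410-55492647, minus strand), which encodes the inhibitor IkB alpha, was at 68.9 and 71.1 FPKM in WT, 202 and 213 FPKM in Tnfr1-/- and 100 and 146 FPKM in Tnfr2-/- MDSCs. The genotypes did not overlap, but the 2 Tnfr2-/- samples stood apart from each other. Nfkbia was higher than WT in Tnfr1-/- (1.55, SE 0.188, adjusted p = 0.000890) and Tnfr2-/- (0.78, SE 0.188, adjusted p = 0.0109) MDSCs. Between the knockouts the difference was -0.77 (adjusted p = 0.0966) as deposited, and it was called lower in Tnfr2-/- after median-ratio scaling (-0.92, adjusted p = 0.0436) and quantile normalization (-1.08, adjusted p = 0.0392). Nfkb1, encoding the p105 precursor of the p50 subunit, was at 36.8 and 38.4 FPKM in WT, 27.3 and 29.4 FPKM in Tnfr1-/- and 33.3 and 36.3 FPKM in Tnfr2-/- MDSCs (0.29 between the knockouts, SE 0.0784, adjusted p = 0.119). Its direction against WT depended on scaling. The difference was -0.40 for Tnfr1-/- and -0.11 for Tnfr2-/- as deposited. After median-ratio scaling it was 0.71 and 0.85, both called higher.

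Casp9 was the caspase called between the knockouts. Casp9 (chr4:141793612-141815976, plus strand), the initiator of the mitochondrial death pathway, was at 22.0 and 22.2 FPKM in WT, 5.95 and 5.40 FPKM in Tnfr1-/- and 12.1 and 10.5 FPKM in Tnfr2-/- MDSCs, with no overlap. It was higher in Tnfr2-/- than in Tnfr1-/- MDSCs (0.88, SE 0.0962, adjusted p = 0.0367) and lower than WT in Tnfr1-/- MDSCs (-1.79, SE 0.0962). In Tnfr2-/- MDSCs the difference from WT was -0.91 as deposited and 0.02 after median-ratio scaling, where the samples overlapped. Casp9 lies 3.40 Mb from Tnfrsf1b on chromosome 4, which carries 8 of the 55 genes. Its exons overlap those of Cela2a and Ctrc on the opposite strand, and the sources used here do not state whether counting used the strand. The part of either in the difference was not tested.

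Casp8, the initiator caspase of death receptors, was at 39.6 and 39.0 FPKM in WT, 14.7 and 18.8 FPKM in Tnfr1-/- and 18.9 and 19.5 FPKM in Tnfr2-/- MDSCs. Both were called lower than WT as deposited (-1.19 and -0.995), but the differences after median-ratio scaling were -0.09 and -0.04. Casp2, Casp4 and Birc3 were higher than WT in both knockouts. Casp2, a caspase of the p53 response, was at 9.88 and 9.17 FPKM in WT, 17.2 and 17.4 FPKM in Tnfr1-/- and 20.7 and 21.3 FPKM in Tnfr2-/- MDSCs. Casp4, encoding the inflammatory caspase-11, was at 16.7 and 17.1 FPKM in WT and 27.0 to 39.4 FPKM in the knockouts. Birc3, the ubiquitin ligase cIAP2, was at 15.3 and 14.9 FPKM in WT and 29.2 to 35.5 FPKM in the knockouts. Cflar, encoding the caspase-8 inhibitor cFLIP, was at 22.5 and 22.1 FPKM in WT and 13.8 to 16.2 FPKM in the knockouts, and its sign changed with scaling in both comparisons.

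Of the Tnfaip genes, Cyld included, 0 of 4 were called between the knockouts by limma (1.45% of all genes). An unadjusted p under 0.05 was reached by 0 of 4 (24% of all). The differences were 0.02 to 0.11 as deposited, and those of Tnfaip1, Tnfaip2 and Cyld changed sign after median-ratio scaling. The lowest was that of Tnfaip8l3, whose low values in the knockouts are compressed on the log2(FPKM + 1) scale. Tnfaip2, an endothelial and myeloid gene first found as induced by TNF, had the highest level of the 55 genes in WT. It was at 216 and 214 FPKM in WT, 68.2 and 98.5 FPKM in Tnfr1-/- and 84.6 and 88.0 FPKM in Tnfr2-/- MDSCs. Its differences from WT were -1.38 and -1.31 as deposited and -0.24 and -0.32 after median-ratio scaling, the latter not called. Tnfaip8l3, a lipid transfer protein, was at 3.75 and 4.12 FPKM in WT and 0.0197 to 0.0410 FPKM in the knockouts, and Tnfaip1 was at 15.8 and 16.05 FPKM in WT and 3.82 to 5.23 FPKM in the knockouts. Both were lower than WT in each knockout. Cyld, a deubiquitinase that restrains NF-kB signalling, was at 8.50 and 8.41 FPKM in WT and 11.96 to 13.7 FPKM in the knockouts, where its fold change was under the threshold as deposited.

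**Figure D4:**
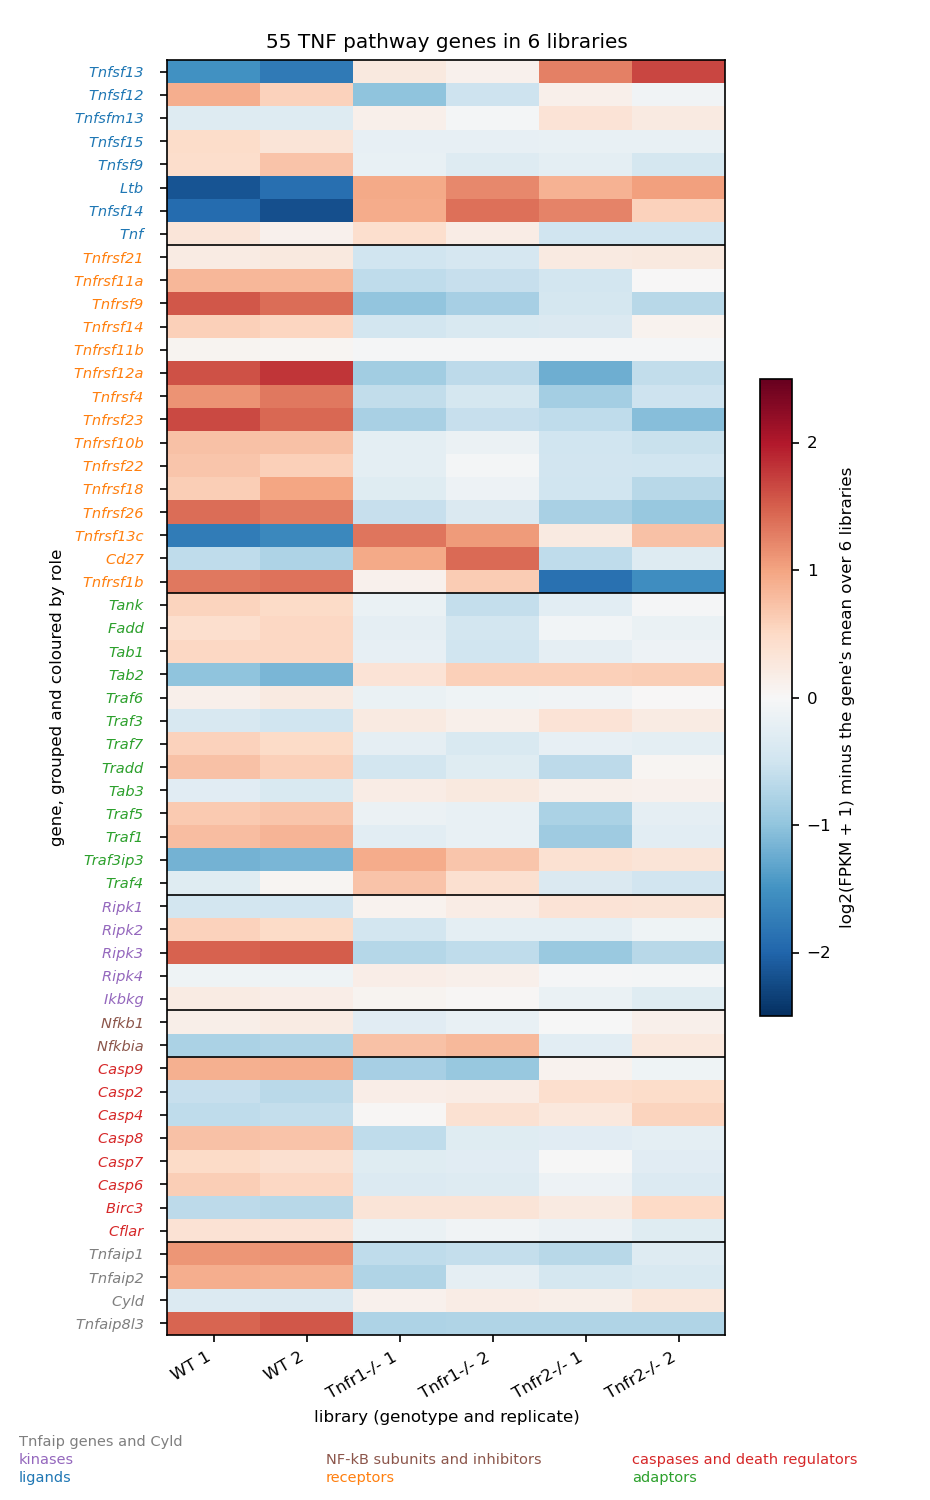
Log2(FPKM + 1) minus the gene's mean over the 6 libraries (colour) for the 55 genes (rows, grouped by role) in each library (columns). As deposited, WT is highest for 35 of the 55 genes (76.4% of all listed genes) and lowest for 16 (19.9% of all), and Traf4 has WT between the knockouts.

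The make-up of the summed FPKM of the 55 genes was taken as shares within each library. These sums hold only listed genes, which are 8 of 15 annotated ligands and 15 of 23 annotated receptors. A factor common to a whole library cancels in such shares, but gene-wise differences in how the values were made do not. Ligands made up 6.57% and 6.36% of the summed FPKM of the 55 genes in WT, 26.1% and 27.1% in Tnfr1-/- and 29.0% and 27.1% in Tnfr2-/- MDSCs. Receptors made up 23.4% and 24.0% in WT, 11.97% and 12.9% in Tnfr1-/- and 8.46% and 8.92% in Tnfr2-/- MDSCs. The receptor sum includes Tnfrsf1b, the targeted gene of the Tnfr2-/- strain. Alone it held 10.8% and 11.1% in WT, 4.75% and 6.14% in Tnfr1-/- and 1.27% and 1.45% in Tnfr2-/- MDSCs. The receptor shares therefore do not describe a general difference of receptors between the knockouts. Of these 2 shares, that of the ligands was the smaller in both WT libraries and the larger in all 4 knockout libraries. Ltb alone held 2.08% and 2.52% in WT and 19.0% to 20.5% in the knockouts, so this order depends largely on 1 gene. Nfkbia and Nfkb1 together made up 10.2% and 10.6% in WT, 22.7% and 21.4% in Tnfr1-/- and 15.0% and 18.4% in Tnfr2-/- MDSCs. Adaptors took 13.4% to 16.3% in all 6 libraries. These shares are a description of sums led by Ltb, Nfkbia, Tnfaip2 and Tnfrsf1b.

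**Figure D5:**
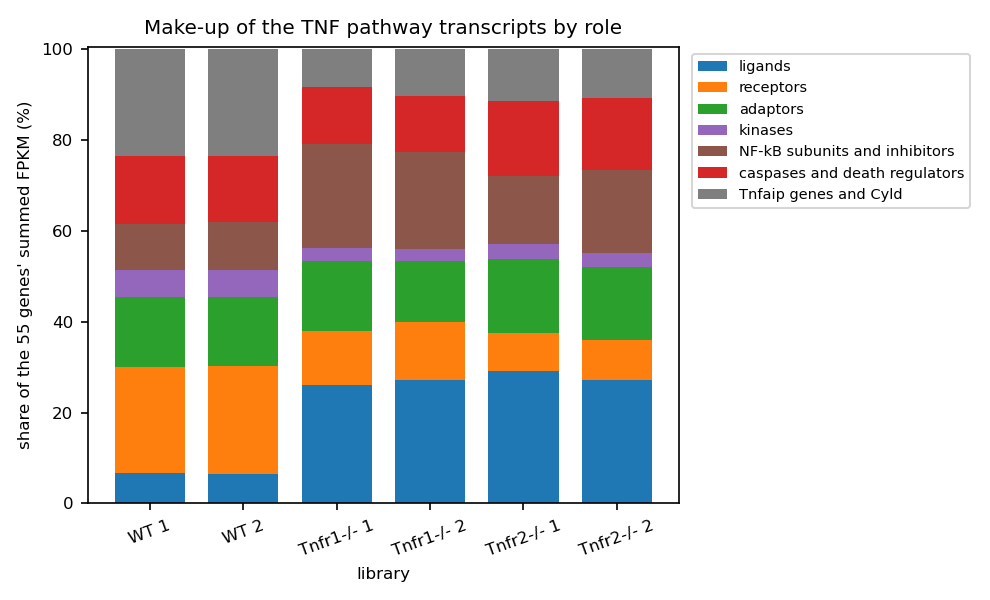
Share of the summed FPKM of the 55 genes (y axis, percent) held by each role (colours) in each of the 6 libraries (x axis). Ligands take under 7% in WT and over 26% in each knockout library, where Ltb alone takes 19.0% to 20.5%.

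Other genes of the pathway were taken from a list of 51, of which 31 were in the table. Between the knockouts 0 of 31 were called by limma (1.45% of all genes), with 5 at an unadjusted p under 0.05 (24% of all). Under median-ratio and quantile scaling 0 of 31 were called (2.59% and 2.98% of all). Against WT 11 were higher and 18 lower in Tnfr2-/- MDSCs as deposited (13.6% and 57.1% of all genes), and 11 and 4 held under all 3 treatments (13.6% and 19.9% of all). In Tnfr1-/- MDSCs 10 were higher and 16 lower (14.1% and 60.7% of all), and 10 and 6 held (14.1% and 21.4% of all). Map3k3, a kinase upstream of NF-kB and MAP kinases, had the largest rise, at 7.89 and 7.57 FPKM in WT against 42.7 to 53.3 FPKM in the knockouts. Bax, which permeabilises mitochondria during apoptosis, had the largest fall, at 155 and 147 FPKM in WT against 5.04 to 7.74 FPKM.

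Of a list of 30 NF-kB target genes, 12 were in the table. Between the knockouts 0 of 12 were called by limma (1.45% of all genes), with 0 at an unadjusted p under 0.05 (24% of all). Under median-ratio and quantile scaling 0 of 12 were called (2.59% and 2.98% of all). Their median log2 difference was 0.61, against 0.06 over all genes. It was 0.139 without Tnfr2-/- replicate 2 and 0.363 without Tnfr1-/- replicate 1. Without Tnfr2-/- replicate 1 it was 1.0, and without Tnfr1-/- replicate 2 it was 0.77. This check was chosen after seeing the data. Against WT 11 of 12 were lower and 1 higher in each knockout as deposited (57.1% of all genes lower in Tnfr2-/- and 60.7% in Tnfr1-/-), and 7 lower in Tnfr2-/- (19.9% of all) and 8 lower in Tnfr1-/- (21.4% of all) held under all 3 treatments. Of these 12, Marcksl1 was the gene higher than WT, at 29.7 and 26.1 FPKM against 94.1 to 115 FPKM. Nfkbia, whose transcription NF-kB also raises, was counted with the pathway genes above and is not among the 12. It was higher than WT in Tnfr1-/- (1.55) and Tnfr2-/- (0.78) MDSCs. The counts therefore describe the 12 listed genes and not NF-kB targets in general. Bcl2a1b, a survival gene of the Bcl2 family, had the largest fall in Tnfr2-/- MDSCs, at 307 and 289 FPKM in WT against 9.95 and 24.7 FPKM. Bcl2a1a (-3.00) and Bcl2a1d (-3.18) are also among the 12. Sequence shared between these Bcl2a1 genes was not examined, so they may not count as separate genes. Ccl2, a monocyte chemoattractant, had the largest fall in Tnfr1-/- MDSCs, at 82.6 and 74.6 FPKM in WT against 0.749 and 1.48 FPKM. It was at 1.51 and 14.6 FPKM in Tnfr2-/- MDSCs, where the 2 samples differed from each other. Vcam1 is in both this list and the spleen macrophage markers, and the 9 listed macrophage markers were all lower than WT in each knockout as deposited.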

How the data were processed

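RNA-seq of 6 splenic MDSC samples was read from a table of 8191 genes deposited by the authors as FPKM, made from single-end reads. The labels name the mm10 build, FastQC and edgeR, and the aligner and counter are not given in the sources used here. According to the study's methods the cells were checked for purity as CD45+Gr1+CD11b+. The deposited p-value column, from a one-way ANOVA over genotypes, was not used, and the ANOVA was recalculated from the FPKM values. Read depth is unknown, so no counting error is given. FPKM are not counts, so limma 3.58.1 in R 4.3.3 (eBayes with trend, two-sided) was used on log2(FPKM + 1) in place of edgeR, in 1 model of all 6 samples, with Benjamini-Hochberg adjustment over 8191 genes. Called genes had an adjusted p under 0.05 and a fold change over 1.5. The smallest two-sided p that exact permutation of 2 against 2 samples allows is 0.333. The 55 genes, lists and tests were chosen with earlier results of these data known. Genes are named by a rule: Tnf and Tnfrsf1b, genes called or with unadjusted p under 0.05 between the knockouts, and up to 8 rises and 8 falls per knockout against WT. Genes named beyond it, among them Casp4, Casp8, Ripk1, Traf3, Fadd, Tradd, Tnfaip1, Tnfaip2, Cyld, Cflar, Tnfrsf11a and Tnfrsf11b, fill out their role and were chosen after their values were seen. Alternatives were a pseudocount of 0.1, filters at a mean of 1 or 5 FPKM, 2 groups only, a replicate block, no trend, median-ratio and quantile scaling, adjustment as for 25000 genes, a fold change over 2 and leaving out each sample. The fit was tested on simulated data. Positions are from GENCODE M21 (GRCm38), which matched all 55 symbols, and promoters from RefSeq (GRCm38.p6). Python 3.11.15, NumPy 2.4.6, pandas 2.3.3 and matplotlib 3.10.9 were used.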

Additional observations from a re-analysis of the deposited data

How the results depend on the processing

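Of the 55 genes, 6 were called between Tnfr2-/- and Tnfr1-/- MDSCs. The count was 0 with only the 2 groups compared, 1 without a trend in eBayes, 0 with adjustment as for 25000 genes, 3 with a fold change over 2, and 0 to 7 when leaving out 1 sample. Over all 8191 genes the count of 119 became 0, 15, 8 and 49 in the same order, 212 after median-ratio scaling and 244 after the quantile method. A replicate block left 0 of the 55 and 7 of all genes called, with adjusted p of 0.0566 to 0.0870 for the 6. The deviations of same-numbered samples correlated at 0.0217 to 0.0462, and the sources do not tie the numbers to the study's 2 experiments, so the numbers were not taken to pair samples. For Tnfr2-/- against WT, 42 genes became 25 with a fold change over 2 and 37 to 42 when leaving out 1 sample. For Tnfr1-/- against WT, 45 became 29 with quantile normalization, 25 with a fold change over 2 and 42 to 45 when leaving out 1 sample. Over all 55 genes, median-ratio scaling changed the sign of 16 in each comparison with WT (10 of them called as deposited in Tnfr2-/- and 12 in Tnfr1-/-) and of 10 between the knockouts (0 of them called). Among the genes named by rule, the directions that reversed were those of Tnf in Tnfr2-/- against WT, at 0.25 after median-ratio scaling and 0.069 after the quantile method, and of Tnfrsf1b in Tnfr1-/- against WT, at 0.17 and 0.10. The difference of Tnf in Tnfr1-/- against WT ran from -0.0027 to 0.22 when leaving out 1 sample. The causes were not tested. Read depth is unknown, and with 2 samples per genotype the spread is poorly known.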
